A study of Mus musculus with 2 samples.

Results

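MHC class II high Ccr2-negative macrophages were examined among CD45+ cells sorted from the hearts of female C57BL6 mice. Members were selected on measured UMI counts. A barcode was a member when it carried at least 10 unique molecular identifiers (UMIs) of C1qa, C1qb and C1qc together, at least 30 UMIs of H2-Aa, H2-Ab1 and Cd74 together, and 0 UMIs of Ccr2 and of the resident macrophage genes Timd4, Lyve1, Folr2 and Cd163. It also had to carry under 5 UMIs of Arg1, at most 2 of the B cell genes Cd79a, Cd79b and Ms4a1, at most 1 of the T cell genes Cd3d and Cd3e, and under 1% of its UMIs from S100a8 and S100a9. Of 11078 kept barcodes, 191 met every condition, 170 of 5641 in the control library and 21 of 5437 in the isoproterenol (ISO) library.

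ISO, a β-adrenergic agonist, was given as a single intraperitoneal dose of 200 mg/kg, and hearts were taken after 24 h as a mouse model of Takotsubo-like cardiomyopathy. Control mice received vehicle, according to the study's methods, although the treatment text of both libraries names the dose. Cells of 3 hearts were pooled in each of the 2 libraries, so no value for a single animal exists. Droplet-based 3' single-cell RNA-Seq was used. With 1 library per group there was no replicate check, no test was made, and the 95% intervals given for levels and shares cover counting error only.

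Macrophages in the heart are a mixture of long-lived resident cells, which are largely self-maintaining and bear markers such as TIM4 and LYVE1, and cells that derive from circulating monocytes, which use the chemokine receptor CCR2 to enter tissue. MHC class II molecules present peptides from engulfed material to CD4+ T cells. Their α and β chains assemble with the invariant chain CD74 and are loaded with peptide by H2-DM, and the genes are switched on together by the coactivator CIITA, which acts through promoter elements that include a CCAAT-type Y box bound by NF-Y.

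The promoters of 3 MHC class II genes are shown because the transcripts of these genes were read in the comparisons that follow. H2-Aa encodes an α chain used in the selection, H2-Eb1 a β chain outside it, and H2-DMb1 a chain of the peptide loader. Each window runs from 250 bases before to 50 bases after the RefSeq start on GRCm38.p6, at chr17:34287774-34288073 on the minus strand for H2-Aa, chr17:34305617-34305916 on the plus strand for H2-Eb1, and chr17:34152941-34153240 on the plus strand for H2-DMb1. Capitals mark the letters GATTGG or, for the other strand, CCAATC, the core of the Y box.
H2-Aa: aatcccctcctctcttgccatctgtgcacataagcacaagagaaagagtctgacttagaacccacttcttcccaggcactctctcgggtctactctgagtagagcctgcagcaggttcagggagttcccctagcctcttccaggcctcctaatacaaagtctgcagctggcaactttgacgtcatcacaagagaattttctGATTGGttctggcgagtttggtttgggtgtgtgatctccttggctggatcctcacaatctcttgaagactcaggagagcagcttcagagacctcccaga
H2-Eb1: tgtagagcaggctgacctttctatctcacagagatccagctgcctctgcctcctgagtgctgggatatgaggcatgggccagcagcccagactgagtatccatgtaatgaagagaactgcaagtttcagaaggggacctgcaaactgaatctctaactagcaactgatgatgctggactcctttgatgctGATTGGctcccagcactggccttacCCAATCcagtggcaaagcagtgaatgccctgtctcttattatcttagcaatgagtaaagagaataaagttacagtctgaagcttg
H2-DMb1: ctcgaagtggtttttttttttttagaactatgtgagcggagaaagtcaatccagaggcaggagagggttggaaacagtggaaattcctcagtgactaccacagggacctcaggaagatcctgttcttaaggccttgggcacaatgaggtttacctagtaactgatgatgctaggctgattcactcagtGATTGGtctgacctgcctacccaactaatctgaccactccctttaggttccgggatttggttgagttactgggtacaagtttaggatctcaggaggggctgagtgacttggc
The match lay 49 bases before the start in H2-Aa, 62 bases in H2-DMb1, and 60 and 35 bases in H2-Eb1, which held 2. All 8 MHC class II genes with a window held the letters, against 16.1% of 32851 promoter windows searched on both strands. A match is a description of the sequence and not evidence of binding.

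Members were a smaller share of the ISO library. They were 3.01% of kept barcodes in control (95% interval 2.58 to 3.49) and 0.386% in ISO (0.239 to 0.590), a log2 ratio of −2.96 (−3.62 to −2.31). Among barcodes with at least 10 C1q UMIs they were 170 of 2164 in control, or 7.86% (6.76 to 9.07), and 21 of 1711 in ISO, or 1.23% (0.761 to 1.87). Shares of a sort do not give numbers of cells in the heart, and fewer cells of a type cannot be told apart from more cells of the others.

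The difference in shares rested on the Ccr2 condition. When only that condition was left out, a choice made after the data were seen, 278 control and 256 ISO barcodes met the rest, which is 4.93% and 4.71% of kept barcodes, with a log2 ratio of −0.066 (−0.30 to 0.17). As a share of C1q barcodes the direction reversed, 12.8% against 15.0%, log2 0.22 (−0.01 to 0.45). Of these barcodes, Ccr2 was at 0 UMIs in 61.2% of control (55.1 to 66.9) and 8.20% of ISO (5.15 to 12.3). These barcodes also lacked resident genes and had under 5 Arg1 UMIs. Before those conditions, the MHC class II limit was met by 902 of 1142 control C1q barcodes, 79.0% (76.5 to 81.3), and by 601 of 1347 in ISO, 44.6% (41.9 to 47.3).

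Barcodes with Ccr2 reads were deeper than those without in both libraries, at medians of 7963 against 5644 UMIs in control and 10062 against 7973 in ISO. After each barcode was thinned to 2000 UMIs, Ccr2 was found in 80 of 270 control barcodes, 29.6% (24.2 to 35.5), and in 177 of 256 ISO barcodes, 69.1% (63.1 to 74.7). Among B cell barcodes without C1q reads, Ccr2 was found in 2.03% (15 of 738) in control and 35.7% (20 of 56) in ISO at the same depth. Before thinning these shares were 3.46% and 58.9%. The ISO B cell barcodes carried other myeloid transcripts too, with Apoe in 85.7% of them after thinning. The part of free RNA or of joined cells in the Ccr2 reads of single ISO barcodes was not tested.

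The conditions removed different cells in the 2 libraries. After the exclusions for other lineages and Arg1, 1130 control and 938 ISO barcodes remained. Absence of resident genes left 305 in control and 531 in ISO, and absence of Ccr2 left 191 and 58. The MHC class II limit then kept 170 of 191 and 21 of 58. Among barcodes that met every other condition, the resident condition removed 410 control and 34 ISO barcodes, and the Ccr2 condition removed 108 and 235. Near the MHC class II limit of 30 UMIs, 11 control and 7 ISO barcodes stood just outside with 15 to 29 UMIs, and 11 and 5 stood just inside with 30 to 59.

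**Figure D1:**
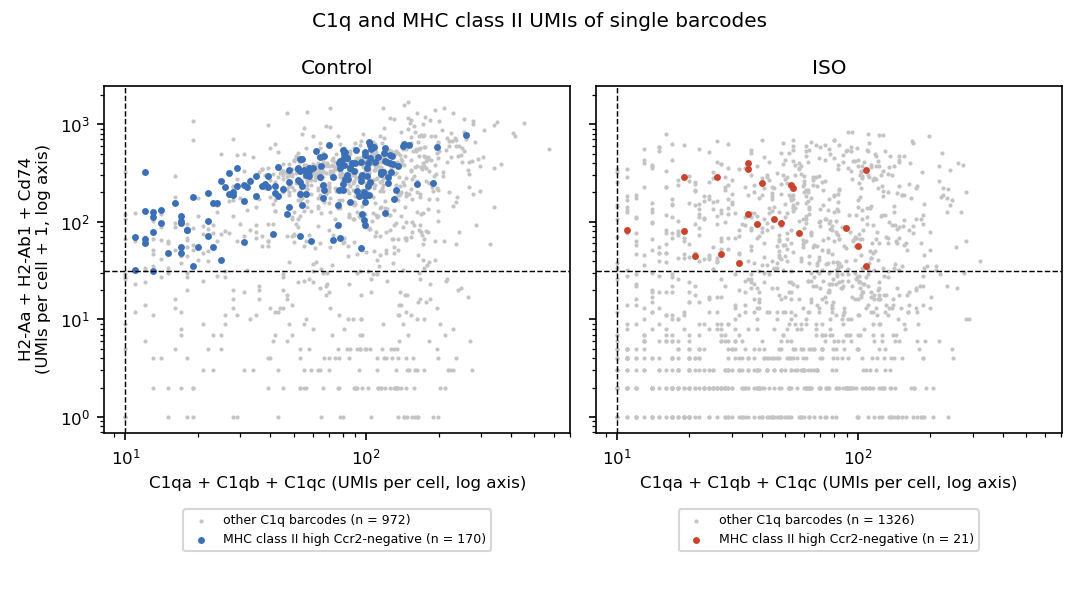
UMIs of C1qa, C1qb and C1qc (x axis, log scale) against UMIs of H2-Aa, H2-Ab1 and Cd74 with 1 added (y axis, log scale) for each C1q barcode left after the exclusions for other lineages, with dashed lines at the limits of the selection. The 170 control members (blue) spread along the upper range of their library, the 21 ISO members (red) are few, and many ISO barcodes (gray) lie below the MHC class II limit.

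**Figure D2:**
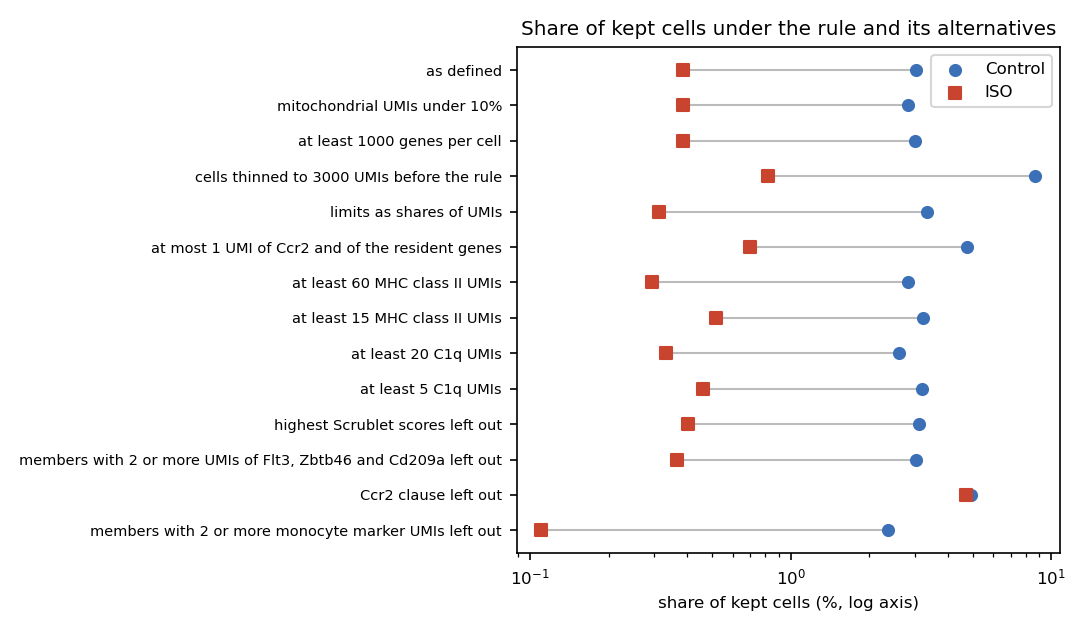
Members as a percent of kept barcodes (log axis) in control (blue circles) and ISO (red squares) for the selection as given and for each alternative. The values are 3.01% and 0.386% for the selection as given, and come together at 4.93% and 4.71% when the Ccr2 condition is left out.

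The genes used in the selection are given as a description only. Levels are given as CPM, for which the counts of a gene were scaled to 1000000 UMIs over the members of a library. The invariant chain gene Cd74 stood at 26677 CPM in control members and 13079 in ISO members. H2-Aa and H2-Ab1, the α and β chains of I-A, stood at 8537 and 8543 CPM in control and 3495 and 3267 in ISO. Single members held 30 to 772 UMIs of the 3 genes in control, with a median of 253, and 34 to 396 in ISO, with a median of 97. The ranges overlapped throughout, and ISO members lay toward the lower end. C1qa, C1qb and C1qc, the chains of the first complement component, summed to 11071 CPM in control and 5994 in ISO. C1q barcodes left after the exclusions for other lineages were also read before the conditions on MHC class II, Ccr2, resident genes and Arg1. Their median MHC class II level was 26590 CPM in control and 1850 in ISO. Of them, 12 of 1142 in control and 409 of 1347 in ISO held 5 or more Arg1 UMIs. On GRCm38 (GENCODE M21), H2-Aa lies at chr17:34282744-34287823, H2-Ab1 at chr17:34257689-34269419, H2-Eb1 at chr17:34305867-34316674 and Ccr2 at chr9:124101950-124113557.

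The label was checked on macrophage genes that the selection did not use. All 13 were detected in members of both libraries, and their sum was 24044 CPM in control and 22832 in ISO, against 3927 and 5353 in dendritic barcodes. In B cell barcodes it was 1105 CPM in control and 17088 in ISO, so the sum set ISO members less apart from these. The median per ISO barcode was 22319 CPM in members and 3920 in B cell barcodes. Single genes were less even than the sum, since 4 of the 13 were at least 2-fold lower in ISO members and 0 were higher, with a median log2 ratio of −0.44. Dendritic barcodes were those with at least 2 UMIs of Flt3, Zbtb46 and Cd209a, at least 30 MHC class II UMIs and at most 2 C1q UMIs. Members held at least 10 C1q UMIs, so macrophage genes that go with C1q are not independent of that comparison. The 11 dendritic cell markers summed to 171 CPM in control members and 324 in ISO members, with Clec9a at 0 in both. The 8 of them that did not define the dendritic barcodes summed to 163 CPM in control members (139 to 189) and 240 in ISO members (171 to 326), against 879 and 552 CPM in dendritic barcodes. The ISO sum over members rested in part on few cells, since all 15 Siglech UMIs lay in 1 ISO member and 12 Cd209a UMIs in 2.

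Emr1, which encodes the macrophage surface protein F4/80, was at 467 CPM in control members (427 to 509) and 132 in ISO members (82.6 to 200). It was at 499 and 360 CPM in resident-marker macrophages, which met the same conditions but held at least 2 UMIs of the resident genes, and at 287 and 107 CPM in Ccr2 macrophages, which held at least 2 UMIs of Ccr2. Dendritic barcodes held 24.5 and 20.7 CPM. Thus Emr1 in ISO members lay near the Ccr2 macrophages of that library, with overlapping intervals, while in control it lay near the resident-marker macrophages. After thinning to 2000 UMIs, 89 of 162 control members, 54.9%, and 7 of 21 ISO members, 33.3%, held an Emr1 UMI, against 1.63% of control B cell barcodes. In ISO B cell barcodes it was 0 of 56, which allows a share of up to 5.36%. At 1000 UMIs the ISO shares were 2 of 21 members, 9.52% (1.17 to 30.4), and 2 of 56 B cell barcodes, 3.57% (0.435 to 12.3), whose intervals overlapped. Unthinned, the shares were 81.8% and 57.1% in members and 4.12% and 19.6% in B cell barcodes.

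Cx3cr1, the fractalkine receptor of tissue macrophages, followed the same order, with 511 CPM in control members (469 to 556) and 114 in ISO members (68.6 to 178). Csf1r, the receptor for the macrophage growth factor CSF1, was at 923 and 414 CPM. Apoe, which carries lipid, was at 10089 and 7199 CPM, and Lyz2, the lysozyme gene of myeloid cells, at 6838 and 8943.

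**Figure D3:**
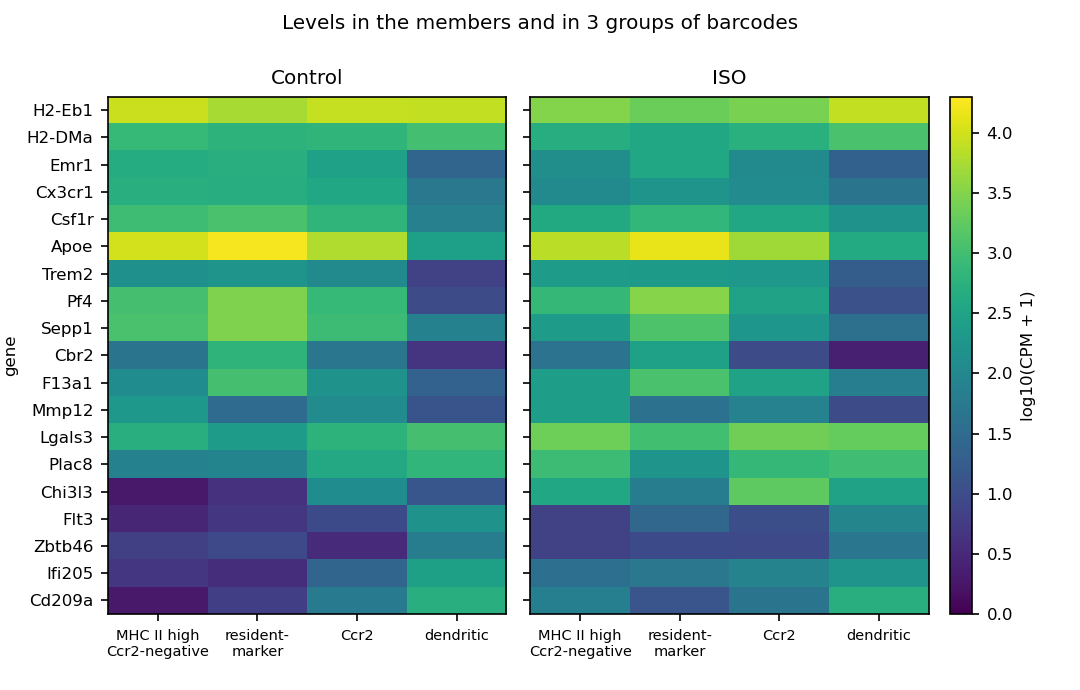
Summed level of selected genes (log10 of CPM + 1, color) in members, resident-marker macrophages, Ccr2 macrophages and dendritic barcodes of each library. Emr1 stands at 467 CPM in control members and 132 CPM in ISO members, and Apoe is low in dendritic barcodes of both libraries.

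The members carried unequal amounts of transcripts from other cell types. The 11 monocyte markers summed to 271 CPM in control members (241 to 304) and 2008 in ISO members (1799 to 2235), and at least 2 UMIs of them were found in 37 of 170 control members, 21.8%, and 15 of 21 ISO members, 71.4%. In Ccr2 macrophages the sums were 859 and 3677 CPM, and in resident-marker macrophages 296 and 559 CPM. They were 1067 and 1933 CPM in dendritic barcodes and 955 and 5792 CPM in B cell barcodes. The sum was higher in ISO in each of these groups, so a higher sum was not particular to members. At least 2 UMIs were found in 87.6% of ISO dendritic and 91.1% of ISO B cell barcodes. Of the markers that the selection did not limit, 7 of neutrophils were at 108 and 228 CPM in members and 6 of B cells at 565 and 252 CPM. Fibroblast, endothelial and cardiomyocyte markers were at 701 and 509 CPM, and 80% of the Fabp4 UMIs of control members lay in 1 cell. Without the members that held at least 2 monocyte marker UMIs, 133 control and 6 ISO members were left, 2.36% and 0.110% of kept barcodes, with a log2 ratio of −4.42. Members of ISO were also deeper, at a median of 7973 UMIs (3873 to 16802) against 5644 (1504 to 22210). Median mitochondrial shares were 2.37% in ISO and 4.71% in control. The part of these differences in the gene comparisons was not tested unless a value is given.

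Between ISO and control members, 6311 genes outside the selection had at least 20 UMIs in both libraries together. In ISO, 774 (12.3%) were at least 2-fold higher and 915 (14.5%) at least 2-fold lower after 0.5 UMI was added, and 553 and 420 of these had a counting interval that excluded 0. The median over all genes tested was 0.06 on the log2 scale. Scaling by the median of ratios moved it by −0.16 and changed the split to 555 higher and 1126 lower. Counts past 2-fold compare 2 libraries and not the conditions.

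The genes highest in ISO over control members included several known from monocytes and from matrix repair. Fn1, the fibronectin gene, was at 5.61 CPM in control and 749 in ISO, log2 6.95 (5.90 to 8.53), and was found in 3 control and 10 ISO members. Thbs1, which encodes the matrix glycoprotein thrombospondin 1, was at 25.2 and 749 CPM and was found in 13 of 21 ISO members. Chi3l3, the chitinase-like protein Ym1, was at 0.935 and 384 CPM, with 1 UMI in control and 64 in ISO from 6 members. S100a4, a calcium-binding protein of motile cells, was at 102 and 1552 CPM and was found in 16 ISO members. Ccl6, a chemokine of myeloid cells, was at 210 and 1624 CPM and was found in 18 ISO members. Plac8, also high in monocytes, was at 77.6 and 881 CPM.

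In ISO, Fn1 and Ccl6 differed between members with and without monocyte markers. Chi3l3, Plac8 and F10 are themselves on that marker list, so the split fixes their direction. The 6 ISO members under 2 monocyte marker UMIs held 26928 UMIs in all, and there Fn1 was at 0, which allows up to 111 CPM, and Ccl6 at 186 CPM, from 5 UMIs. In the other 15 they were at 893 and 1901 CPM. Cx3cr1 was at 371 CPM, from 10 UMIs, in the 6 and at 64.3 CPM in the 15, and Apoe at 15820 and 5540 CPM. In control the order of Ccl6 and Cx3cr1 was the reverse, with Ccl6 at 234 CPM under 2 marker UMIs and 156 CPM at 2 or more, and Cx3cr1 at 489 and 565 CPM. Thbs1 had a log2 ratio of 2.96, against 4.87 over all members, when those with monocyte markers were left out. In the 6 ISO members left, Thbs1 was at 111 CPM, which is also what a count of 0 allows there. S100a6, another S100 protein, had a log2 ratio of 2.94 over all members and 0.25 without the members that carried monocyte markers. Clec4e, the receptor Mincle, had 3.57 and 3.56, the latter from the same 6 ISO members. After thinning, Fn1 was found in 33.3% of ISO members and 44.6% of ISO B cell barcodes, Spp1 in 33.3% and 41.1%, and Chi3l3 in 19.0% and 44.6%. Those shares in members were not above those in the ISO B cell barcodes. These barcodes also held other myeloid transcripts, with up to 107 Arg1 UMIs in a single barcode. Whether free RNA or joined cells gave them was not tested.

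Single cells set other leading genes. Spp1, the secreted matrix protein osteopontin, was at 20.6 and 3261 CPM, log2 7.28 (6.70 to 7.99), but 81.8% of its ISO UMIs came from 1 of the 11 members that held it. Without the member richest in it in each library, the log2 ratio was 5.36. All 131 UMIs of Calca, the calcitonin and CGRP gene, came from 1 ISO member, at 785 CPM against 0 in control. A count of 0 allows up to 3 UMIs, but with 1 cell behind the ISO value no fold was set. Areg, the EGF receptor ligand amphiregulin, had 82.8% of its ISO UMIs in 1 member, and its log2 ratio went from 3.28 to 1.02 when the richest member of each library was left out. Cryab, a small heat shock protein abundant in heart muscle, went from 4.04 to 0.81 in the same way.

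Among the genes lowest in ISO members, Slamf9, a SLAM family receptor of myeloid cells, was at 395 CPM in control and 48.0 in ISO, log2 −2.95 (−4.26 to −2.05), and was found in 119 of 170 control and 4 of 21 ISO members. Hpgd, which degrades prostaglandins, was at 345 and 48.0 CPM and was found in 115 and 4 members. Mmp13, collagenase 3, was at 232 and 12.0 CPM, with 248 UMIs over 69 control members and 2 UMIs in 1 ISO member. Ets1, a transcription factor, was at 202 and 12.0 CPM. Pdgfb, a growth factor for mural cells and fibroblasts, was at 124 and 18.0 CPM. Ptger4, a prostaglandin E2 receptor, was at 119 and 18.0 CPM. Without the members that carried monocyte markers, the log2 ratio was −0.38 for Slamf9, −0.85 for Hpgd, −3.74 for Mmp13 and −2.79 for Pdgfb. The 6 ISO members left held 26928 UMIs, where a count of 0 allows up to 111 CPM. These values therefore cannot tell which of the genes kept their difference. For Mgp, matrix Gla protein, 96.5% of the control UMIs came from 1 cell.

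**Figure D4:**
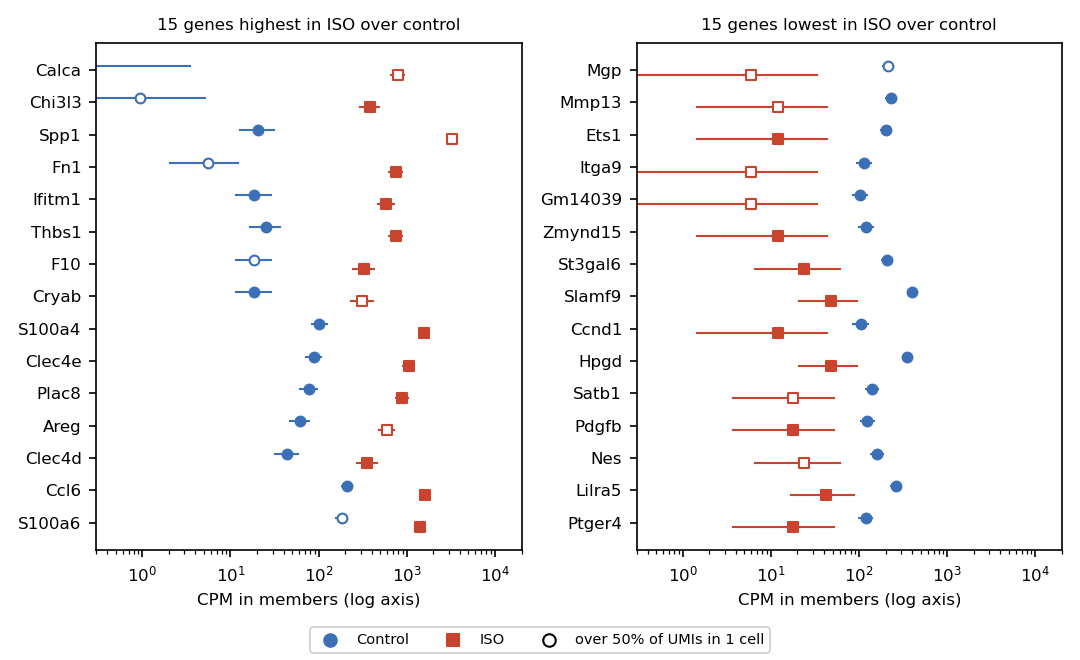
CPM in control (blue circles) and ISO (red squares) members on a log axis for the 15 genes with the highest and the 15 with the lowest log2 ratio, with 95% Poisson intervals, and open symbols where over 50% of the UMIs came from 1 cell. The Calca and Spp1 squares are open, while S100a4 and Ccl6 are filled in ISO.

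For every list read between ISO and control members, the shares over all genes to set beside it are 12.3% higher and 14.5% lower. List medians without the members that carried monocyte markers rest on 6 ISO members with 26928 UMIs. A count of 0 allows up to 111 CPM there, so those medians cannot tell whether a list kept its difference. Antigen presentation genes outside the selection did not form a single pattern. In the MHC class II pathway, 2 of 16 tested genes were at least 2-fold higher, 12.5% against 12.3% over all genes, and 4 were at least 2-fold lower, 25% against 14.5%. The median was −0.24 against 0.06 over all genes. H2-Eb1, the β chain of I-E, was at 9102 CPM in control members (8923 to 9285) and 3117 in ISO members (2855 to 3397), log2 −1.54 (−1.68 to −1.42), and was found in all 170 and all 21 members. It was read in cells selected on its neighbors in the pathway, so it is not independent of them. H2-DMa, a chain of the peptide loader, was at 756 and 486 CPM, log2 −0.63 (−0.99 to −0.31). Its partner H2-DMb1 was at 572 and 623 CPM, log2 0.13 (−0.19 to 0.43). Thus H2-DMa was lower in ISO beyond counting error and H2-DMb1 was not.

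Ciita, the coactivator of these genes, was at 58.9 and 36 CPM with 63 and 6 UMIs, and its interval held 0. Ctss, the protease that trims the invariant chain, was at 1479 and 1379 CPM, log2 −0.10 (−0.31 to 0.10). Ifi30, the lysosomal thiol reductase GILT, was the other way, at 244 and 629 CPM, log2 1.37 (1.03 to 1.70), and was found in 102 and 20 members. H2-Ob, which restrains H2-DM and is best known from B cells, was at 56.1 and 5.99 CPM. MHC class I and peptide loading genes had 0 of 16 at least 2-fold higher and 1 lower, with a median of 0.11, which the median of ratios scaling turned to −0.051. Of 9 costimulation and checkpoint genes, 1 was higher and 3 were lower. Cd83, which limits ubiquitination and loss of MHC class II from the surface, was at 2568 and 1067 CPM, log2 −1.26 (−1.49 to −1.05). Cd86, a CD28 ligand, was at 434 and 438 CPM, log2 0.02 (−0.36 to 0.37).

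Among genes of resident macrophages, 3 of 14 were at least 2-fold higher in ISO members and 6 were lower, with a median of −0.76. Sepp1, the secreted selenoprotein P, was at 1164 and 234 CPM, log2 −2.30 (−2.81 to −1.86), and was found in 158 of 170 and 11 of 21 members. Mrc1, the mannose receptor CD206, was at 507 and 174 CPM, log2 −1.52 (−2.14 to −1.0). Mgl2, a galactose-binding lectin, was at 417 and 95.9 CPM. Pf4, a chemokine that tissue macrophages express, was at 1069 and 737 CPM, log2 −0.53 (−0.82 to −0.27). F13a1, coagulation factor XIII A, ran against the list, at 124 and 258 CPM, as did Ccl24, with 94% of its ISO UMIs in 1 member.

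Wound repair and matrix genes had 11 of 17 at least 2-fold higher, 1 lower and a median of 1.61. Beside Spp1, Fn1 and Thbs1, Lgals3, galectin 3, was at 509 and 2266 CPM, log2 2.16 (1.96 to 2.35), and was found in 20 of 21 ISO members. Tgm2, a transglutaminase, was at 41.1 and 264 CPM and was found in 13 ISO members. Timp2, an inhibitor of metalloproteinases, was the gene that was lower, at 367 and 144 CPM, log2 −1.32 (−2.01 to −0.75). Without the members that carried monocyte markers, which left 6 in ISO, the median of the list was 1.01.

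Glycolysis and hypoxia genes had 10 of 18 at least 2-fold higher, 0 lower and a median of 1.38. Pkm, pyruvate kinase, was at 189 and 935 CPM, log2 2.31 (2.0 to 2.62). Ldha, lactate dehydrogenase A, was at 136 and 528 CPM, log2 1.96 (1.56 to 2.35), and both were found in 17 of 21 ISO members. Hif1a, the hypoxia-inducible factor, was at 53.3 and 126 CPM. Without the members that carried monocyte markers the median was 0.58, the lowest value among the alternatives run. The proteasome core had 9 of 14 higher, 0 lower and a median of 1.09, and nuclear respiratory chain genes had 18 of 69 higher, 0 lower and a median of 0.68. Transcripts of the mitochondrial genome had 4 of 8 lower, 0 higher and a median of −1.03. This was not particular to members, since the median mitochondrial share of all kept barcodes was 4.11% in control and 2.02% in ISO.

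Inflammatory genes were read in members of both libraries. Interleukin and inflammasome genes had 6 of 16 at least 2-fold higher in ISO, 1 lower and a median of 0.74, which was 1.47 without the members that carried monocyte markers. Il1b, interleukin 1β, was at 5343 CPM in control and 8691 in ISO, log2 0.70 (0.62 to 0.79), and was found in 151 of 170 and 20 of 21 members. Il1rn, the interleukin 1 receptor antagonist, was at 68.3 and 384 CPM, log2 2.49 (1.98 to 2.99). Il1a was at 151 and 695 CPM, log2 2.20 (1.84 to 2.55). Osm, oncostatin M, was at 47.7 and 210 CPM. Tnf was at 1016 and 1451 CPM, log2 0.52 (0.31 to 0.72). Il10, an anti-inflammatory cytokine, had 31 UMIs in 6 of 170 control members and 0 in ISO. With so few control members holding it, a count of 0 in 21 ISO members does not show a lower level. After thinning, Il1b was found in 76.2% of ISO members and 67.9% of ISO B cell barcodes, which were close, against 81.5% and 14.2% in control.

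Chemokines differed among themselves, with 5 of 16 at least 2-fold higher, 3 lower and a median of 0.20, which was 1.28 without the members that carried monocyte markers and −0.14 without the richest cell of each gene. Ccl2, a CCR2 ligand that draws monocytes, was at 521 and 1690 CPM, log2 1.70 (1.49 to 1.91), and 56% of its ISO UMIs came from 1 member. Ccl9, a CCR1 ligand, was at 186 and 1061 CPM, log2 2.51 (2.21 to 2.81), and was found in 20 of 21 ISO members. Ccl12, another CCR2 ligand, was lower, at 247 and 48.0 CPM, log2 −2.28 (−3.59 to −1.36). Cxcl16, a ligand for CXCR6, was at 811 and 366 CPM, log2 −1.14 (−1.55 to −0.77). Ccl4 was at 7780 and 7750 CPM, log2 −0.01 (−0.09 to 0.08).

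Interferon-stimulated genes had 1 of 17 at least 2-fold higher, 4 lower and a median of −0.46, which turned to 0.083 without the members that carried monocyte markers and to 0.41 with 5 UMIs added. Ifitm3, an antiviral membrane protein, was the one that was higher, at 742 and 1774 CPM, log2 1.26 (1.06 to 1.45). Rsad2, the antiviral enzyme viperin, was at 132 and 24.0 CPM, log2 −2.29 (−4.35 to −1.07), and 47% of its control UMIs came from 1 cell. Adrenergic receptor and cAMP signaling genes, the pathway that ISO engages, had 0 of 11 past 2-fold in either direction. Over all genes 12.3% were higher and 14.5% lower. Among 21 immediate early genes, which also respond to tissue digestion, 3 were higher and 3 lower, 14.3% each and near the shares over all genes. Egr1 was at 1624 and 641 CPM and Hspa1b at 1870 and 384 CPM.

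Transcription factors of macrophages had 2 of 23 genes at least 2-fold higher and 4 lower, 8.70% and 17.4% against 12.3% and 14.5% over all genes, with a median of −0.05. Mef2c was at 452 and 114 CPM, log2 −1.95 (−2.73 to −1.33), and Runx1 at 533 and 168 CPM, log2 −1.64 (−2.27 to −1.12). Maf, a factor of resident macrophages, was at 453 and 210 CPM. Cebpb, which drives inflammatory genes, was at 1306 and 2524 CPM, log2 0.95 (0.79 to 1.11), and Bhlhe40 was at 27.1 and 174 CPM in 14 and 8 members. Spi1, which encodes PU.1, was found in all 21 ISO members, at 370 and 623 CPM.

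Complement components and receptors outside the selection had 3 of 8 higher and 1 lower (median 0.77, and 0.080 without the members that carried monocyte markers), with Itgam, the CD11b chain, at 139 and 330 CPM. Iron and antioxidant genes had 2 of 10 higher and 0 lower (0.80, which turned to −0.43 without those members), with Hmox1, heme oxygenase 1, at 219 and 408 CPM and 65% of its ISO UMIs in 1 member. Efferocytosis genes had 1 of 14 higher and 2 lower (0.28, and −0.60 at a limit of 60 MHC class II UMIs), with Axl, a receptor for dying cells, at 284 and 114 CPM. Lipid handling genes had 2 of 14 higher and 2 lower (0.21), 14.3% each and near the shares over all genes. Plin2, a lipid droplet protein, was at 201 and 581 CPM and Cd36, a fatty acid scavenger, at 280 and 95.9 CPM. Lysosomal genes had 2 of 16 higher, 12.5% against 12.3% over all genes, and 0 lower (0.03), with Ctsd, cathepsin D, at 237 and 797 CPM. Toll-like and Fc receptors had 1 of 14 higher, which was Clec4n (Dectin-2) at 84.2 and 468 CPM, and 1 lower (0.38). Heat shock proteins and chaperones had 3 of 16 higher and 1 lower (0.48), the higher ones being the chaperonin subunits Cct3, Cct5 and Cct8. Glucocorticoid response genes had 3 of 10 higher and 0 lower (0.07). Interferon gamma signaling genes had 0 of 7 past 2-fold (−0.37), cell cycle genes had 0 of 6 higher and 1 lower (−0.50), and cytosolic ribosomal proteins had 4 of 82 higher and 3 lower (0.38).

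**Figure D5:**
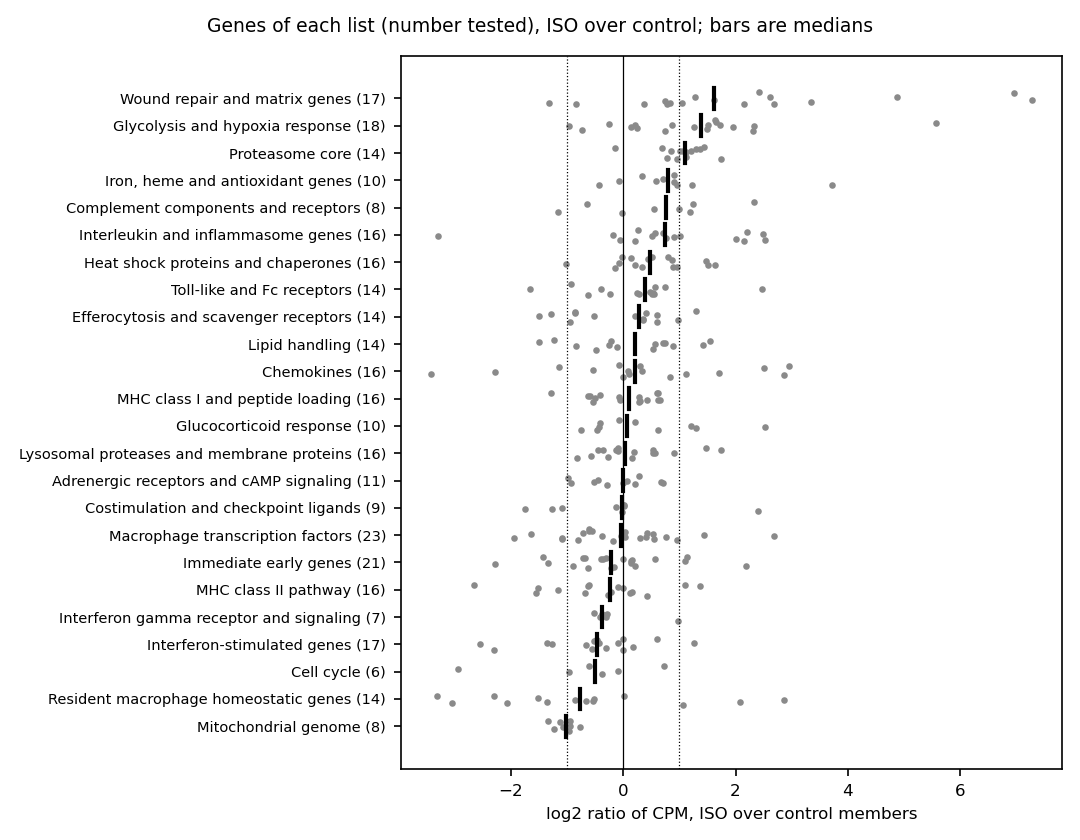
Log2 ratio of ISO over control members for each tested gene (points) of each list other than the ribosomal and respiratory chain genes, with the number tested beside the name and a bar at the median. Wound repair, glycolysis and the proteasome core have medians of 1.61, 1.38 and 1.09, and the mitochondrial genome has −1.03.

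Members were next set against the macrophages that differed from them in 1 condition, within each library. A gene was counted only when it was past 2-fold in the same direction in both. Against resident-marker macrophages (336 in control and 31 in ISO), 15 of 3173 genes (0.473%) were higher in members and 42 (1.32%) were lower. Mmp12, macrophage elastase, led the higher genes at 192 against 30.8 CPM in control and 246 against 41.4 CPM in ISO, but all 41 of its UMIs in ISO lay in 3 members. Ccl4, a chemokine, had log2 ratios of 1.5 in control and 1.28 in ISO, and Lgals3 had 1.12 and 1.19.

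Of the 42 lower genes, 7 were on the resident macrophage list, of which 12 genes were tested in both libraries. Cbr2, a carbonyl reductase, had log2 ratios of −3.81 and −2.68, and F13a1 had −3.12 and −2.15. Sepp1 had −1.34 and −2.39, and Pf4 had −1.47 and −2.18. Ap1b1 and Ap2a2, subunits of the adaptors of clathrin-coated vesicles, were not on the list and had −1.71 and −1.74, and −1.47 and −1.89. The resident macrophage list shares no gene with the selection. It is still not independent of it, since the groups were separated on resident genes and genes that go with those follow. In control, 0 of 18 genes of the list were at least 2-fold higher and 14 were lower, with a median of −2.13. In ISO these were 0 of 12 and 9, with a median of −1.71. The MHC class II pathway had medians of 0.42 and 0.41 with 0 genes past 2-fold in either direction.

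Against Ccr2 macrophages (87 in control and 221 in ISO), 32 of 7139 genes (0.448%) were higher in members and 42 (0.588%) were lower. Rcan1, a calcineurin regulator, was at 134 against 35.9 CPM in control and 210 against 61.0 CPM in ISO. Chi3l3 was lower in members, with log2 ratios of −6.45 in control and −2.15 in ISO, and Fn1 had −4.29 and −1.18. Ms4a4c, a membrane protein of monocytes, had −1.71 and −1.88. The Fn1 and Chi3l3 levels of ISO members thus lay below those of the Ccr2 macrophages of the same library, at 749 against 1701 CPM and 384 against 1720 CPM. The groups were separated on Ccr2, so genes that go with it follow and are not independent of the selection.

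Against dendritic barcodes (92 in control and 387 in ISO), 369 of 7696 genes (4.79%) were higher in members and 288 (3.74%) were lower. Pf4 had log2 ratios of 6.86 and 6.09, Apoe 5.24 and 4.09, and Trem2, a lipid receptor of macrophages, 4.43 and 3.73. The groups were separated on C1q, so macrophage genes that go with it follow and are not independent of the selection. Ifi205, a dendritic marker outside the definition of these barcodes, had −6.04 and −2.12. H2-Eb1 stood at 9102 CPM in control members and 7969 in dendritic barcodes, and at 3117 and 7960 in ISO. The ISO value was low in members, resident-marker macrophages (2173 CPM) and Ccr2 macrophages (2691 CPM), while that of the dendritic barcodes was nearly equal in both libraries.

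Members also varied among themselves. The 3 MHC class II genes of the selection made up 0.474% to 11.5% of the UMIs of a control member, with a median of 4.48%, and 0.202% to 5.11% in ISO, with a median of 2.15%. Members above and below the median share of their library were compared, 85 with 85 in control and 10 with 11 in ISO. In control, 79 of 5827 genes (1.36%) were at least 2-fold higher in members above the median and 325 (5.58%) were lower. In ISO, 61 of 1290 (4.73%) were higher and 117 (9.07%) were lower.

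The split was made on H2-Aa, H2-Ab1 and Cd74, so other genes of the pathway are not independent of it and are given as a description. H2-Eb1 followed the selected genes in both libraries, at 12948 against 5788 CPM in control and 6150 against 738 CPM in ISO. H2-DMb1 did so too, with log2 ratios of 1.02 and 2.23, whereas H2-DMa had 0.93 in control and −0.18 (−0.88 to 0.48) in ISO. In control, Il1b had a log2 ratio of 0.88 and Rsad2 of 1.30. A large part of the Rsad2 UMIs of control members came from 1 cell, as given above, and its ratio was not read without that cell. The genes lower in control members above the median included Plac8 at −2.17, S100a4 at −2.0 and Fabp4, a fatty acid binding protein of vessels, at −3.34. In ISO, Lyz2 had −1.99, Fn1 −2.28 and Spp1 −3.11. These values rested on few cells. In control, Plac8 was found in 6 of the 85 members above the median and 15 of the 85 below, with 52.9% of the UMIs of the lower group in 1 cell, and S100a4 in 3 and 17. In ISO, Fn1 was found in 3 of 10 and 7 of 11 members, and 89.2% of the Spp1 UMIs of the lower group and 86.5% of those of Fabp4 in control lay in 1 cell. The total behind each CPM contains the selected genes.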

How the data were processed

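CD45+ cells of 3 pooled hearts per group were profiled by droplet-based single-cell RNA-Seq in 2 libraries. Per the labels, the authors used bcl2fastq 2.19.1.403, UMI-tools 1.0.0, STAR 2.7.3a and featureCounts 1.6.4 with build mm10, and the deposited values are UMI counts per gene and barcode, without normalization. A barcode was kept if it had over 500 but below 6000 genes, and if mitochondrial UMIs were below 25%, which left 5641 of 5927 in control and 5437 of 5514 in ISO. The libraries shared 15 barcodes, and no member was among them. Members were summed within a library, with 0.5 UMI added to each gene, and the log2 ratio of ISO to control CPM was taken wherever both libraries together held 20 or more UMIs. Shares carry Clopper-Pearson and levels Poisson 95% intervals. Shares of cells with a UMI were read after thinning to 2000 UMIs.

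The members and the 34 gene lists were chosen with earlier results of these data known. Named genes were those of the selection and the lists, the 15 highest and 15 lowest in ISO (with a floor of 100 CPM and 50 UMIs in whichever library was higher), and the 10 each way per neighboring group. Some genes of the lists are not reported here. Expected doublets were left out as an alternative (Scrublet in scanpy 1.11.5), which marked 255 control and 236 ISO barcodes, of which 3 and 0 were members. Positions came from GENCODE M21 and promoters from RefSeq. Python 3.11.15, numpy 2.4.6, scipy 1.17.1 and pandas 2.3.3 were used, and the steps were tested on simulated data.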

Additional observations from a re-analysis of the deposited data

How the results depend on the processing

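In all 12 alternatives set out at the start that bear on it, the lower share of members in ISO kept its direction, with log2 ratios from −3.41 to −2.64 of kept barcodes, and in 11 from −2.97 to −2.34 of C1q barcodes. Of 4 alternatives added after the data were seen, leaving out the Ccr2 condition gave −0.066 of kept and 0.22 of C1q barcodes, and leaving out members with monocyte markers gave −4.42 and −4.13. The count of genes at least 2-fold higher in ISO was 4265 without a UMI minimum, 175 at a minimum of 100 UMIs, 1696 with 5 UMIs added and 465 without the richest cell of each gene, against 774. The count of lower genes was 1918, 196, 104 and 1676 in that order, 1514 with cells thinned before selection, 543 with cells thinned before summing and 1383 without the Ccr2 condition, against 915. Fewer or more genes tested is part of the construction of the minimum and thinning settings, and otherwise the cause was not tested. Lists with a median of at least 1 in size numbered 7 rather than 4 without the Ccr2 condition.

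Of 658 values of named genes, 637 stayed within the limits set, 16 moved and 5 changed sign. Calca was −0.73 with cells thinned before selection, Mgp was 0.80 with limits set as shares of UMIs, 0.25 at 20 C1q UMIs and 2.68 without members with monocyte markers, and Ccl6 was −0.20 in that last setting. Of 568 list medians, 14 left the limits set and 57 had the other sign, in 16 of 26 lists. Of the 9 lists with a median of at least 0.5 in size, the iron and antioxidant list was the 1 that changed sign, from 0.80 to −0.43 without members with monocyte markers. The MHC class II pathway median was 0.19 with 5 UMIs added, against −0.24. Of 70 shares of members with a UMI, 26 moved when cells were thinned to 1000 UMIs. No paired analysis was possible because each group has 1 library. Counting error, 21 ISO members and 166831 ISO UMIs set the depth at which genes of low level could be read.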
